A study of Mus musculus with 4 samples.

Results

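The genes described are the subunits of cAMP-dependent protein kinase (protein kinase A, PKA), its inhibitor and its anchors, chosen by name as a set of 10 genes among the 32531 gene rows of the count files. They are the catalytic subunit genes Prkaca and Prkacb, the regulatory subunit genes Prkar1a, Prkar1b, Prkar2a and Prkar2b, the inhibitor gene Pkia, and the anchor genes Akap5, Akap9 and Akap11. RNA was sequenced from the accumbens nucleus (2 libraries) and from the dorsal striatum (2 libraries) of mice older than 20 months. All 4 libraries came from the line Drd1-TRAP CP73, in which the promoter of the dopamine receptor gene Drd1 drives Rpl10a, a protein of the large ribosomal subunit, fused to EGFP, so both regions carried the same transgene. The libraries were input RNA, taken here as RNA of the whole dissected tissue rather than of tagged ribosomes, so all cell types of each region contributed to the values. The comparison of regions asks which genes differ in level between the accumbens and the dorsal striatum of old animals. Whether different animals gave the libraries is not in the labels, and the p-values thus cover only the variation among these 4 libraries, which may be technical.

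PKA is the main intracellular target of cAMP. In the resting enzyme a dimer of regulatory subunits holds catalytic subunits inactive, and binding of cAMP to the regulatory subunits frees the catalytic ones. In striatal projection neurons dopamine acting on Drd1 receptors raises cAMP through the G protein Golf and adenylyl cyclase, while Drd2 receptors lower it. A-kinase anchoring proteins bind the regulatory dimer and place the enzyme beside its substrates, and the small inhibitor protein encoded by Pkia blocks free catalytic subunits.

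The coding sequence around the inhibitor site shows how these genes differ in the way they hold the catalytic subunit, and is given for the 4 regulatory subunits and for Pkia. Each stretch of 30 bases was read 5′ to 3′ from the GENCODE M21 transcripts (GRCm38). The capitals mark a pair of adjacent arginine codons, any codon, and the codon at the position that PKA phosphorylates in a substrate. The pattern that was searched also required an alanine, glycine or serine codon at that position and an isoleucine or valine codon after it, and it occurred 1 time in each coding sequence.
Prkar1a: ggccgacggCGCCGAGGTGCTatcagtgct
Prkar1b: gcgcgtcgcCGGCGGGGCGGTgtgagtgct
Prkar2a: aaatttactAGACGAGTATCAgtctgtgca
Prkar2b: cggttcacaAGGCGTGCCTCGgtctgtgca
Pkia: agaacaggtAGAAGAAATGCAatacatgat
The last codon in capitals encodes alanine in Prkar1a and Pkia and glycine in Prkar1b, so these proteins act as pseudosubstrates. It encodes serine in Prkar2a and Prkar2b, the type II subunits, which PKA phosphorylates. The stretches lie at chr11:109660098-109660127 (plus strand, exon 4 of Prkar1a), chr5:139108526-139108555 (minus strand, exon 3 of Prkar1b) and chr3:7437410-7437439 (plus strand, exon 2 of Pkia). Those of the type II genes cross the junction of exons 2 and 3, at chr9:108714287-108714308 and chr9:108716863-108716870 for Prkar2a (plus strand) and at chr12:32038622-32038643 and chr12:31993776-31993783 for Prkar2b (minus strand).

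Sequence shared between paralogs bears on how reads were assigned. The coding sequences of Prkaca and Prkacb were 80.2% identical over 1053 aligned bases, with a longest identical run of 34 bases. Prkar1a and Prkar1b were 75.2% identical (longest run 17 bases) and Prkar2a and Prkar2b 71.9% (longest run 36 bases). Of the 50-base words in the longest coding transcript, 0.359% for Prkaca also stood in another annotated gene, the processed pseudogene Prkaca-ps1. The share was 0.377% for Akap5 and 1.99% for Akap11, and 0 for the other 7 genes. In the annotation 8.95% of the exon bases of Prkar1b are shared with Gm15672 on the same strand and 0.778% of those of Akap9 with Cyp51 on the opposite strand.

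Values of single libraries are given with replicate 1 before replicate 2 of each region. Counts assigned to genes were 8606099 and 8478403 per accumbens library and 8991788 and 11849134 per dorsal striatum library, and every one of the 10 genes had at least 660 counts in each library. Markers of spiny projection neurons were abundant in all libraries, as in striatum. The 12 genes of the list summed to 7754 to 8407 CPM (counts relative to library size, scaled with TMM factors) in accumbens. In dorsal striatum they summed to 9608 to 9975 CPM, so accumbens was lower without overlap, and 9 of the 12 had negative fold changes. The 11 cortical glutamatergic markers summed to 266 to 426 CPM in accumbens, against 112 to 198 CPM in dorsal striatum. Their most abundant gene over all libraries, Slc17a7, had 198 CPM in accumbens replicate 1 and 79.2 CPM in replicate 2, against 32.2 CPM in dorsal striatum replicate 1 and 0.716 CPM in replicate 2. Of the cortical list 7 of 9 tested genes had a positive fold change, 0 passed the test used below, and no member was at 0 in all libraries, although Neurod6 was at 0 in dorsal striatum replicate 2. Summed levels also did not overlap, with accumbens above, for oligodendrocyte precursors (229.7 to 251 against 174 to 176 CPM, 5 of 5 tested genes positive), oligodendrocytes (2382 to 2788 against 1674 to 2355 CPM, 7 of 10 positive) and microglia (106 to 126 against 64.2 to 97.1 CPM, 9 of 10 positive), and without their most abundant gene, Csf1r, the microglial sums overlapped. The interneuron sum (310.4 to 330.3 CPM in accumbens, against 195 to 234 CPM in dorsal striatum) was carried by Sst, at 193 and 142 CPM in accumbens, against 53.4 and 58.3 CPM in dorsal striatum. Without Sst it overlapped, at 137 and 168 CPM against 141 and 175 CPM, and 6 of the 9 tested interneuron markers had negative fold changes (list median −0.15). Sums overlapped for astrocytes, blood vessels and neighbouring subcortical neurons. Ependymal and choroid markers stayed under 18 CPM in sum and were lower in accumbens without overlap, at 11.1 and 6.99 CPM against 16.1 and 17.9 CPM. The ribosomal RNA row Rn45s took 5.61% and 5.94% of counts in accumbens and 2.03% and 3.34% in dorsal striatum. The part of these differences in the results below was not tested, and in bulk RNA fewer cells of a type and less RNA per cell cannot be told apart.

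None of the 10 genes passed the test between regions. Levels of Prkaca, Prkar2a, Prkar1b and Pkia had positive log2 fold changes (accumbens over dorsal striatum) and those of the other 6 genes negative ones. The sign changed in at least 1 other setting for Prkar1b, Pkia, Akap5 and Akap11, whose values lay near 0. With the quasi-likelihood test of edgeR and Benjamini-Hochberg adjustment, 0 of 10 had an adjusted p under 0.05, where 1.28% of all 14493 tested genes did (144 higher and 42 lower in accumbens). An unadjusted p under 0.05 was found for 4 of the 10 (Prkaca, Prkar1a, Prkar2b and Akap9), against 19.2% of all tested genes. The groups did not overlap for 6 of the 10, against 51.2% of all tested genes. Of those 6 genes, 2 were higher and 4 lower in accumbens, and non-overlapping and lower genes made up 25.6% of all tested genes. The median log2 fold change was −0.04 over the 10 genes and 0.02 over all tested genes, and the median of its absolute size was 0.22 against 0.36.

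The unadjusted 95% interval of the fold change lay inside 2-fold in either direction for 9 of the 10 genes, all but Prkaca. Scaling moves these values together. With library size alone as the scaling, the median over all genes was −0.15 (log2) instead of 0.02, 1.69% of genes were called, 29.8% of calls were higher in accumbens instead of 77.4%, and Prkar1b and Pkia had negative fold changes. With upper-quartile scaling 1.31% were called and 67.4% of calls were higher. Under neither scaling did any of the 10 genes pass.

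**Figure D1:**
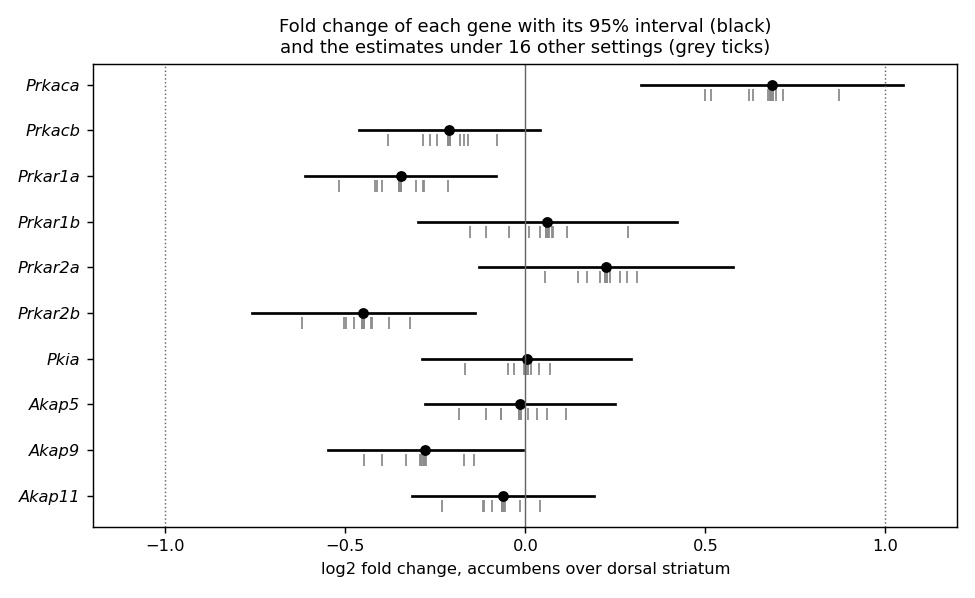
Log2 fold change of each gene, accumbens over dorsal striatum, on the horizontal axis, with the unadjusted 95% interval of the edgeR fit as a black line, the estimates under 16 other settings as grey ticks, and dotted lines at 2-fold. The interval of Prkaca (0.32 to 1.05) lies right of 0, those of Prkar1a, Prkar2b and Akap9 lie left of 0, and the other 6 include 0.

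Prkaca, which encodes the alpha catalytic subunit (chromosome 8, 83972993 to 83996443, plus strand), had the largest difference of the set. Its level was 173.6 CPM in accumbens replicate 1 and 175 CPM in replicate 2, against 95.01 CPM in dorsal striatum replicate 1 and 122 CPM in replicate 2. The accumbens libraries were close together and above both dorsal striatum libraries, which lay further apart (means ± SD 174 ± 1.04 CPM in accumbens, against 108 ± 18.9 CPM in dorsal striatum, n = 2 each). The fold change was 1.61 (95% interval 1.25 to 2.07), a log2 fold change of 0.68 (SE 0.16), and the edgeR adjusted p of 0.0801 missed the threshold. Of all tested genes 435 (3.001%) had a smaller unadjusted p. Other tools put Prkaca past the threshold, as the single gene of the 10. The adjusted p was 0.00489 with DESeq2, which called 6.1% of all tested genes, and 0.0463 with limma-voom, which called 2.97%. Without the low-count filter edgeR gave an adjusted p of 0.0021 and called 5.68% of genes. The result also turned on single libraries. Without dorsal striatum replicate 1 the log2 fold change was 0.50 (edgeR adjusted p = 0.709, 0.71% of all tested genes called), and without replicate 2 it was 0.87 (0.0852, 1.09% called). Without accumbens replicate 1 it was 0.69 (edgeR adjusted p = 0.00537), and without accumbens replicate 2 it was 0.67 (0.00376), in fits that called 18.2% and 28.9% of all tested genes and took the lone accumbens library to vary like the dorsal striatum pair. Prkaca has a GC content of 54.9%, and its decile of tested genes by GC content had a median log2 fold change of 0.13, with 0.31 in the highest decile and −0.04 in the lowest. With an offset for GC content, which called 0.752% of genes, Prkaca stood at 0.62 (edgeR adjusted p = 0.0949).

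Prkacb, which encodes the beta catalytic subunit (chromosome 3, 146729574 to 146812990, minus strand), was at 887 and 848 CPM in accumbens and at 966 and 1043 CPM in dorsal striatum. The groups did not overlap, with accumbens lower, at a log2 fold change of −0.21 (SE 0.11, edgeR adjusted p = 0.338). Since Prkaca and Prkacb lay on opposite sides of 0, their ratio within a library differed more than either gene. Scaling by library does not affect this ratio, but the GC contents of the 2 genes differ (54.9% and 45.4%). With the GC offset Prkaca stood at 0.62 and Prkacb at −0.0787 (edgeR adjusted p = 0.0949 and 0.791). Prkaca had 0.196 and 0.206 counts per count of Prkacb in accumbens and 0.0984 and 0.117 in dorsal striatum, and the mean ratio was 1.87 times as high in accumbens. The groups did not overlap, but 2 against 2 libraries cannot give an exact permutation p under 0.333, and the ratio was not tested. The third catalytic gene, Prkx, was at 16.3 and 28.8 CPM in accumbens, against 26.7 and 21.6 CPM in dorsal striatum, with overlapping groups.

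**Figure D2:**
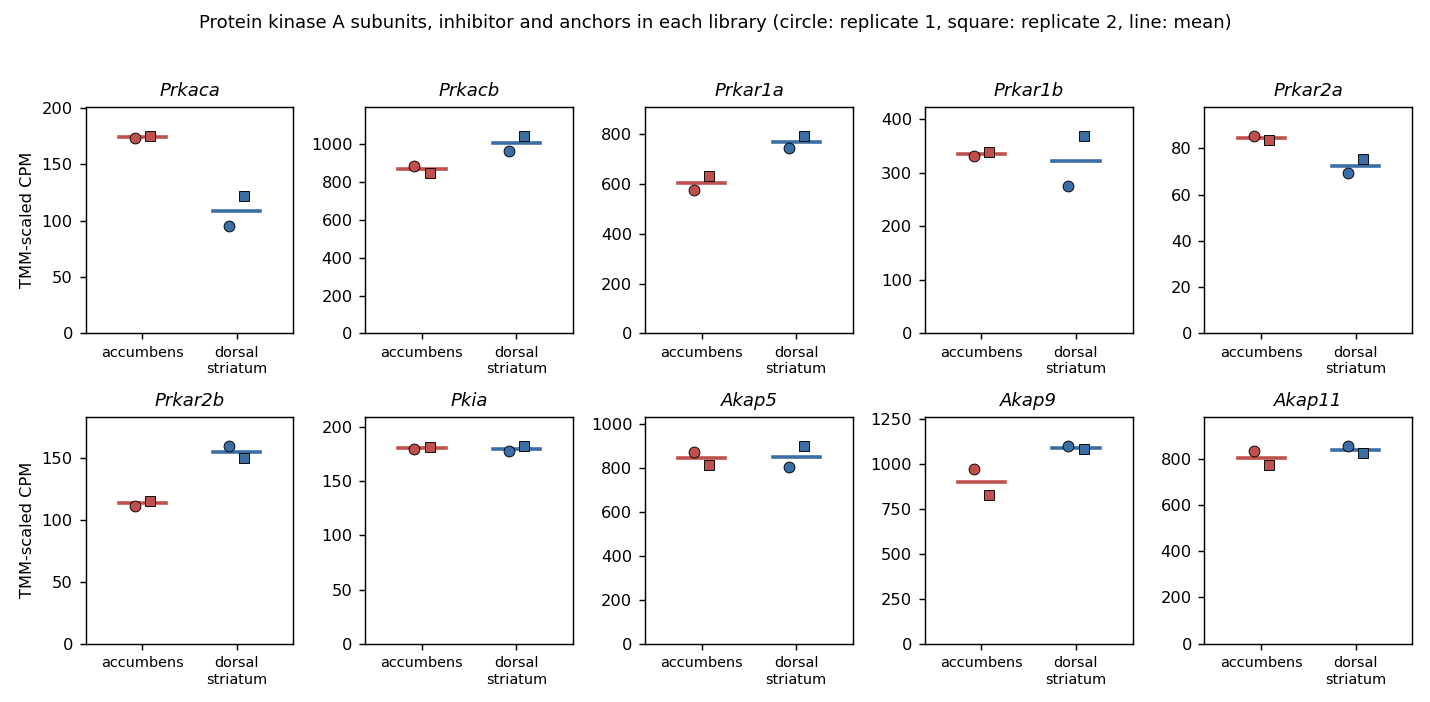
TMM-scaled CPM of each gene (vertical axis, from 0, a scale for each gene) in the 2 accumbens and 2 dorsal striatum libraries, with circles for replicate 1, squares for replicate 2 and lines for means. Without overlap, Prkaca and Prkar2a are higher in accumbens, and Prkacb, Prkar1a, Prkar2b and Akap9 are lower. Among all tested genes 51.2% do not overlap. Pkia is between 178 and 182 CPM in all 4 libraries.

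Among regulatory subunits, the type I alpha gene Prkar1a (chromosome 11, 109649405 to 109669656, plus strand), which encodes a widely expressed subunit, was at 574 and 630.4 CPM in accumbens and at 741 and 790.5 CPM in dorsal striatum. Both accumbens libraries were below both dorsal striatum libraries. The fold change was 0.79 (95% interval 0.65 to 0.94), a log2 fold change of −0.35 (SE 0.12), with an edgeR adjusted p of 0.160. Prkar1b (chromosome 5, 139017306 to 139150001, minus strand), the type I gene expressed mainly in the nervous system, was at 332 and 340.0 CPM in accumbens and at 275 and 369 CPM in dorsal striatum. Here the dorsal striatum libraries lay on either side of the accumbens libraries. Its log2 fold change was 0.06 (95% interval −0.30 to 0.42), −0.15 without dorsal striatum replicate 1 and 0.28 without replicate 2.

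The type II beta gene Prkar2b (chromosome 12, 31958476 to 32061296, minus strand), which encodes the main type II subunit of neurons, was at 112 and 115 CPM in accumbens and at 159.7 and 151 CPM in dorsal striatum. The gap between the groups was wider than the spread within either one. The fold change was 0.73 (95% interval 0.59 to 0.91), a log2 fold change of −0.45 (SE 0.13), and the edgeR adjusted p was 0.130. Prkar2a (chromosome 9, 108689314 to 108750436, plus strand), the more widely expressed type II gene, was at 85.3 and 83.6 CPM in accumbens and at 69.2 and 75.3 CPM in dorsal striatum. The groups did not overlap, with accumbens higher, at a log2 fold change of 0.22 (SE 0.15, edgeR adjusted p = 0.478). Without accumbens replicate 2 the log2 fold changes of Prkar1a and Prkar2b were −0.42 and −0.48. Without accumbens replicate 1 those of Prkar1a and Prkar2b were −0.28 and −0.43. Their GC contents were 45.7% and 44.1%, in the third and the second decile, where the median log2 fold change of tested genes was −0.09 and −0.10. With the GC offset they stood at −0.22 and −0.32 (edgeR adjusted p = 0.398 and 0.253), and with library size alone at −0.52 and −0.62 (0.0612 and 0.0586).

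Ratios within the regulatory pairs did not overlap between the regions either, and they were not tested. For single genes, 51.2% of all tested genes did not overlap. Prkar2a had 0.764 and 0.724 counts per count of Prkar2b in accumbens and 0.433 and 0.500 in dorsal striatum, and Prkar1a had 1.73 and 1.85 counts per count of Prkar1b in accumbens and 2.70 and 2.14 in dorsal striatum. The first ratio was higher and the second lower in accumbens, without overlap in either case. GC content was 45.7% for Prkar1a and 55.9% for Prkar1b, and with the GC offset they stood at −0.22 and −0.0443. Prkar2a and Prkar2b then stood at 0.31 and −0.32. The ratio of Prkar2b to Prkar1a, the beta type II and alpha type I genes, overlapped at 0.194 and 0.183 in accumbens and 0.215 and 0.190 in dorsal striatum.

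**Figure D3:**
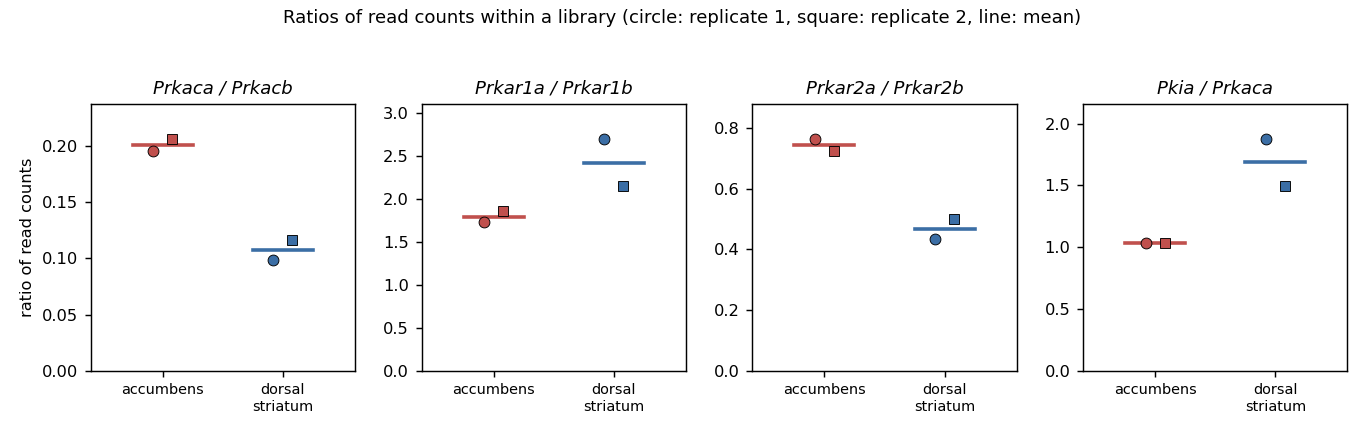
Ratios of read counts of gene pairs within a library (vertical axis, from 0) in accumbens and dorsal striatum, with circles for replicate 1, squares for replicate 2 and lines for means. The groups do not overlap in any of the 4 panels, and the ratio of Prkaca to Prkacb averages 0.201 in accumbens and 0.108 in dorsal striatum. Among all tested single genes 51.2% do not overlap, and no such share was computed for ratios. The panels of Prkaca to Prkacb and of Pkia to Prkaca share Prkaca, so they are not independent. The ratio of Prkar2b to Prkar1a, which overlapped, is not drawn, and no ratio was tested.

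Pkia (chromosome 3, 7366669 to 7445366, plus strand) was the steadiest of the 10 genes across the libraries. It was at 180.1 and 181 CPM in accumbens and at 178 and 182 CPM in dorsal striatum, a log2 fold change of 0.00 (95% interval −0.29 to 0.29). Its ratio to the catalytic gene Prkaca was 1.04 and 1.04 in accumbens and 1.88 and 1.498 in dorsal striatum, lower in accumbens without overlap. Because Pkia itself was level and overlapped, this ratio restates the difference of Prkaca and adds no separate result. The other inhibitor genes, Pkig and Pkib, were less abundant. Pkig was at 33.1 and 26.7 CPM in accumbens and at 15.5 and 14.8 CPM in dorsal striatum, without overlap (log2 difference 0.98, SE 0.25, edgeR adjusted p = 0.0985). Pkib was at 4.33 and 15.5 CPM in accumbens and at 6.19 and 4.69 CPM in dorsal striatum, and its accumbens libraries lay on either side of the dorsal striatum libraries.

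Of the anchors, Akap5 (chromosome 12, 76324891 to 76334153, plus strand) encodes the postsynaptic anchor that also binds the phosphatase calcineurin and protein kinase C. It was at 871 and 813 CPM in accumbens and at 804 and 896 CPM in dorsal striatum, with overlapping groups and a log2 fold change of −0.01 (95% interval −0.28 to 0.25). Akap11 (chromosome 14, 78492246 to 78536808, minus strand), whose product also binds the kinase GSK3 and protein phosphatase 1, overlapped too, at 831 and 774 CPM in accumbens, against 853 and 822 CPM in dorsal striatum (−0.06, 95% interval −0.31 to 0.19). Akap9 (chromosome 5, 3928054 to 4081310, plus strand) encodes a large anchor of the Golgi apparatus and centrosome, with the short form yotiao at NMDA receptors. It was at 970.0 and 829 CPM in accumbens and at 1098 and 1082 CPM in dorsal striatum, so both accumbens libraries were lower. The estimate was −0.28 (log2, SE 0.12, edgeR adjusted p = 0.250). It was −0.40 without accumbens replicate 1 and −0.17 without accumbens replicate 2, and −0.14 with the GC offset.

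Levels of different genes were compared per kilobase of the longest coding transcript. In accumbens the order was Prkacb (199.6 CPM per kb), Prkar1a (171), Prkar1b (127), Akap5 (126), Akap11 (85.7), Prkaca (76.6), Akap9 (68.5), Pkia (49.98), Prkar2b (33.6) and Prkar2a (17.0). The neighbours Prkar1b and Akap5 overlapped in their libraries and no other neighbours did. In dorsal striatum the order was Prkacb (231), Prkar1a (218), Akap5 (127), Prkar1b (122), Akap11 (89.4), Akap9 (83.1), Pkia (49.8), Prkaca (47.6), Prkar2b (45.9) and Prkar2a (14.6). There the overlapping neighbours were Prkacb and Prkar1a, Akap5 and Prkar1b, Pkia and Prkaca, and Prkaca and Prkar2b. Prkaca stood above Akap9 and Pkia in accumbens and below both in dorsal striatum. The order at the top depends on the length used, since per kilobase of all annotated exons Prkar1a led in both regions, ahead of Akap5 and then Prkacb. Per kilobase of transcript Prkacb was above 99.2% of tested genes in accumbens and 99.5% in dorsal striatum, and the lowest of the 10, Prkar2a, above 75.7% and 72.9%.

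Prkaca made up 27.2% and 28.3% of the summed catalytic level (Prkaca and Prkacb, CPM per kb) in accumbens and 15.8% and 18.2% in dorsal striatum. With all annotated exons as the length these shares were 40.8% and 42.1% against 25.8% and 29.1%, so the size of the share depends on the gene model while the order of the regions was the same. The catalytic sum itself overlapped, at 280.3 and 272 CPM per kb in accumbens and 264 and 293 in dorsal striatum. The regulatory sum did not overlap, at 339.6 and 359 CPM per kb in accumbens and 376 and 425 in dorsal striatum, and its ratio to the catalytic sum was 1.21 and 1.32 in accumbens and 1.43 and 1.45 in dorsal striatum. Within the regulatory sum Prkar1a held 48.2% and 49.9% in accumbens and 56.0% and 53.0% in dorsal striatum, and Prkar1b 37.1% and 35.9% against 27.7% and 32.9%. The type II genes together held 14.8% and 14.2% in accumbens and 16.3% and 14.1% in dorsal striatum, with overlapping groups. These shares are descriptions of RNA levels in the 4 libraries and were not tested.

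**Figure D4:**
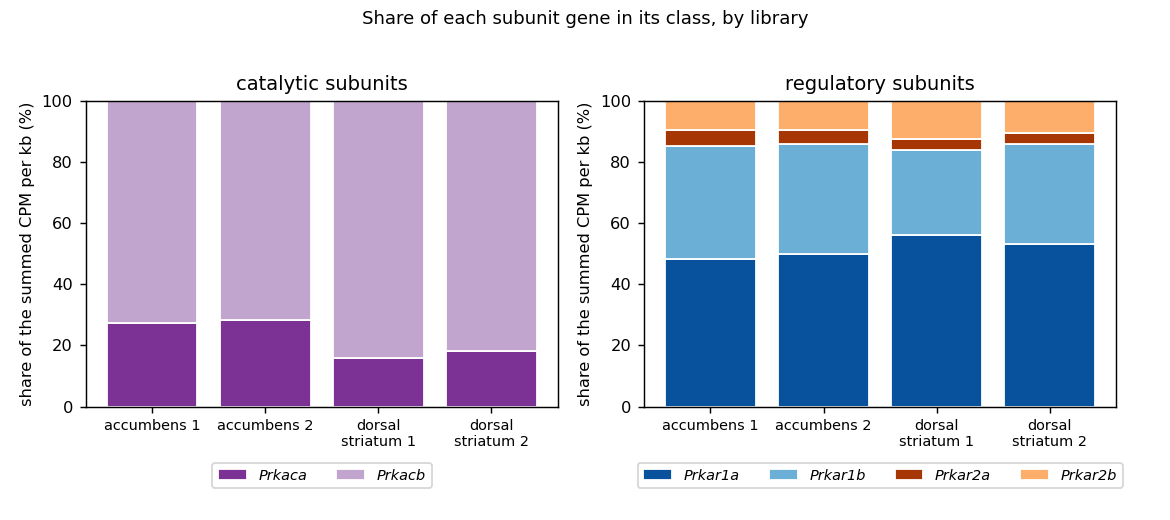
Share of each gene in the summed CPM per kb of the catalytic (left) and regulatory (right) subunits, in percent, with a stacked bar for each library. Prkaca holds 27.2% and 28.3% of the catalytic bar in accumbens and 15.8% and 18.2% in dorsal striatum, and the type I genes fill most of the regulatory bar in every library.

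Other genes of cAMP and PKA signalling were read from 9 lists, which hold 87 tested genes besides the 10. Of these 87 genes, 2 were lower in accumbens past the threshold (edgeR adjusted p under 0.05) and 0 were higher, and their median log2 fold change was −0.05. Among all tested genes 0.29% were lower and 0.994% higher past the threshold. The list of catalytic subunits (3 tested) and that of inhibitors (3 tested) had 0 calls, with medians of −0.10 and 0.87, and the regulatory list holds only genes described above. With 3 genes, the inhibitor median is the value of Pkib alone (SE 0.59), between Pkia at 0.00 and Pkig at 0.98. Of the 27 genes in the list of anchors 22 were tested, and Akap2, Akap3, Akap4, Akap14 and Rab32 had too few counts. Of the 22, which include Akap5, Akap9 and Akap11, 0 passed and 16 had negative fold changes. The list median was −0.12, against 0.02 over all tested genes. An unadjusted p under 0.05 was found for 7 of the 22 in edgeR, against 19.2% of all tested genes, and the list was not tested. The most abundant further anchors were Map2, a dendritic microtubule protein that binds type II subunits, and Pja2, a ubiquitin ligase of regulatory subunits. Map2 overlapped, at 1785 and 1944 CPM in accumbens, against 1737 and 1849 CPM in dorsal striatum. Pja2 was at 690.1 and 627 CPM in accumbens, against 835 and 938 CPM in dorsal striatum (log2 difference −0.43, SE 0.12, edgeR adjusted p = 0.117).

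The extremes among the anchors were picked after their values were seen. Akap8, which encodes a nuclear anchor, was at 57.6 and 63.4 CPM in accumbens and at 108 and 95.4 CPM in dorsal striatum (−0.75, edgeR adjusted p = 0.0668). Akap1, the gene of the mitochondrial anchor, was at 20.03 and 31.1 CPM against 44.5 and 44.8 CPM (−0.80, edgeR adjusted p = 0.140). Sphkap, which encodes an anchor that prefers type I subunits, was at 119 and 80.0 CPM against 52.1 and 57.7 CPM (0.86, edgeR adjusted p = 0.0893). In all 3 genes the groups did not overlap. Over the 16 other settings Akap8 passed in 8, Sphkap in 5 and Akap1 in 3.

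Upstream of the kinase, the list of Golf subunits, cyclases and receptors had 0 calls among 19 tested genes and a median of −0.03. Its most abundant genes were Gnal, which encodes the alpha subunit of Golf (1603 and 1338 CPM in accumbens, against 1239 and 1182 CPM in dorsal striatum), and Gnao1 (1118 and 1183 CPM against 1271 and 1279 CPM). Of 15 cAMP phosphodiesterase genes 0 passed, with a median of 0.22, and Pde10a, the abundant striatal enzyme, was at 1615 and 1255 CPM in accumbens, against 1990.0 and 1957 CPM in dorsal striatum (−0.46, edgeR adjusted p = 0.126). Pde1b was at 459.6 and 349 CPM in accumbens, against 470.3 and 521 CPM in dorsal striatum. Other effectors of cAMP had 0 calls among 8 and a median of 0.35. Of these, Rapgef4, which encodes a cAMP-activated exchange factor for Rap, was at 144 and 135 CPM in accumbens, against 186 and 143 CPM in dorsal striatum, with overlapping groups.

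Downstream, Rgs9 was lower in accumbens as the single call among 14 genes of PKA substrates, at 658 and 662 CPM in accumbens, against 1587 and 1312 CPM in dorsal striatum (log2 difference −1.13, SE 0.13, edgeR adjusted p = 0.0233). It encodes a striatal regulator of G protein signalling, is also on the list of 12 spiny projection neuron markers, of which 2 were lower past the threshold, and passed under all 16 other settings. Among 9 phosphatase genes that anchors hold or that oppose PKA, Ppp3ca, the calcineurin catalytic subunit that Akap5 binds, was lower in accumbens. It was at 1462 and 1232 CPM in accumbens, against 2338 and 2352 CPM in dorsal striatum (−0.80, SE 0.12, edgeR adjusted p = 0.0295), without overlap, whereas the libraries overlapped for Akap5. With the GC offset Ppp3ca missed the threshold (edgeR adjusted p = 0.0617), and it was not measured where the 50 most abundant genes were left out, but passed in the other 14 settings. The medians of these lists were −0.05 and −0.14.

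**Figure D5:**
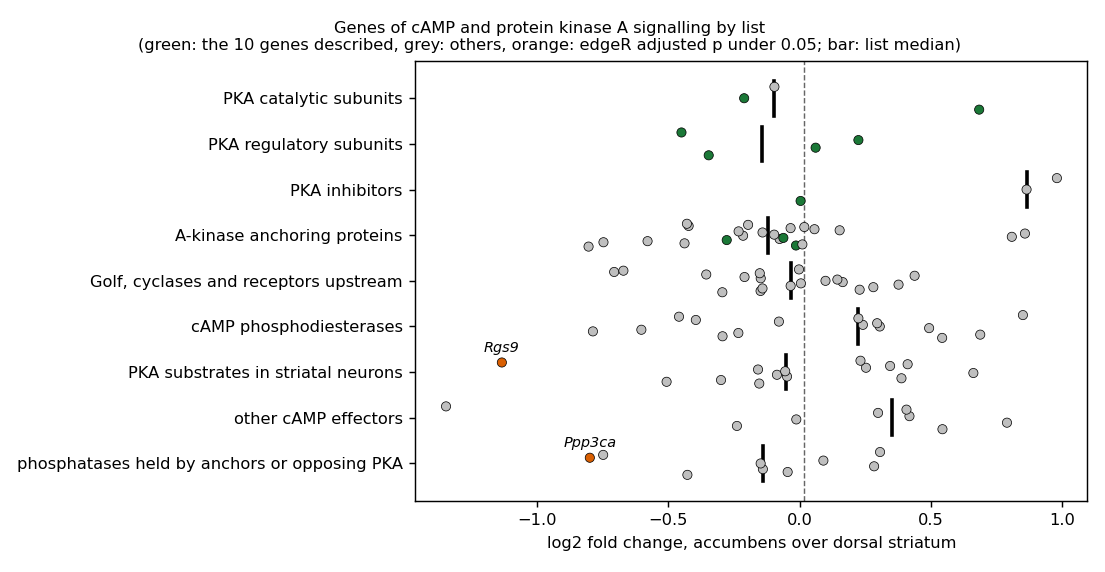
Log2 fold change, accumbens over dorsal striatum (horizontal axis), of each tested gene in 9 lists of cAMP and PKA signalling, with the 10 genes described in green, genes with an edgeR adjusted p under 0.05 in orange, a black bar at each list's median and a dashed line at the median of all tested genes (0.02). Rgs9 (−1.13) and Ppp3ca (−0.80) are the 2 orange points.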

How the data were processed

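For each of the 4 libraries (2 per region) the authors deposited a table of raw counts by gene symbol. The submitters' processing notes name STAR 2.0.0e, HTSeq and mm10. Annotation and strand setting were not given in the sources used here, and reads of overlapping genes cannot be told apart. Rows that name no gene were set aside before library sizes were summed. Reads in no feature were 27.5% to 35.4%, ambiguous reads 6.06% to 9.46% and multiply aligned reads 6.98% to 10.2% of all reads in the files.

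Counts were filtered with filterByExpr, scaled with TMM factors and tested two-sided across all 14493 remaining genes in edgeR 4.0.16 (R 4.3.3, quasi-likelihood test), with region as the term and Benjamini-Hochberg adjustment. The SE is |log2 fold change| over √F, and 95% intervals use the t quantile at the fit's total degrees of freedom. Gene positions, lengths and GC content came from GENCODE M21 (GRCm38, the assembly of mm10). Lists are described by counts and medians. The rule for named genes takes all 10 genes and, from each pathway list, up to 4 genes past the threshold or else the 2 most abundant. A gene that this rule takes is not reported here. The genes and lists were chosen with earlier results of these data known. The procedure was run on counts simulated with the spread fitted to these 4 libraries, so the run cannot show whether that spread is right. Alternatives used DESeq2 1.42.0, limma 3.58.1, other scalings and filters, a replicate block, offsets and left-out libraries.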

Additional observations from a re-analysis of the deposited data

How the results depend on the processing

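Of the 10 genes, 6 kept the sign of their fold change under all 16 other settings (Prkaca, Prkacb, Prkar1a, Prkar2a, Prkar2b and Akap9). The other 4 genes lay near 0 and changed sign in some. Prkar1b was at −0.11 with library size alone and −0.0443 with the GC offset, and between −0.15 and 0.28 when each library was left out in turn. Pkia was at −0.0495 with upper-quartile factors, −0.17 with library size alone and −3.5e-05 with DESeq2, and between −0.0316 and 0.0151 with libraries left out. Akap5 was at 0.00751 with the length offset and 0.11 with the GC offset, and between −0.11 and 0.0613 with libraries left out. Akap11 was at 0.0404 with the GC offset. The number of the 10 genes past the threshold was 0 in the edgeR test and 1 (Prkaca) without a low-count filter, with DESeq2, with limma-voom and with the replicate block, and between 0 and 3 with libraries left out. The number of all genes past the threshold was 186, against 1203 without the filter, 884 with DESeq2, 431 with limma-voom, 371 with legacy=FALSE in edgeR, 843 with the replicate block and 109 with the GC offset, and between 109 and 4464 with libraries left out. The cause of this spread was not tested. With libraries left out, the upper ends of both ranges came from the same fit, without accumbens replicate 2, which had a lone accumbens library. That fit called a large share of all tested genes, so its calls among the 10 do not set them apart. The GC offset was chosen after seeing the data. Of 144 recounts of calls in the 9 pathway lists, 97 equalled the reported count. That count was 0 or 1 in every list, so the recounts say little on stability.

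The regions share replicate numbers, but nothing in the labels ties a number to an animal or batch. Deviations of same-numbered libraries from their region's mean correlated at 0.0326, so the replicate block is no evidence of pairing; with it, Prkaca was at 0.70 (edgeR adjusted p = 0.00922). With 2 libraries per region the spread is poorly known, and for Prkaca the choice of test decides the call.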
